A study of Mus musculus with 20 samples.

Results

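The genes described here are 9 transcripts of the neuromuscular junction and of the response of muscle to loss of its nerve: the acetylcholine receptor subunits Chrna1, Chrnb1, Chrnd, Chrng and Chrne, the receptor kinase Musk, the adhesion molecule Ncam1, and the denervation-responsive genes Gadd45a and Runx1. They were chosen by name, and all 9 were found among the 55416 genes listed in the counts. The counts came from the quadriceps of 20 wild-type male C57BL/6J mice aged 26 to 28 months, fasted for 4 h. Controls (n = 10) received a single intramuscular injection of 50 µL of 0.9% saline, and secretome-treated mice (n = 10) received 50 µL of a cell-free product made from the medium of partially differentiated human embryonic stem cells, which the study diluted in saline. The injected muscle was collected 3 h later, so all 20 muscles had been pierced by a needle and none was left uninjected. The question was whether the secretome changed the expression of these genes and how far they differed between muscles.

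The muscle acetylcholine receptor is an ion channel that opens when motor nerve terminals release acetylcholine. Adult receptors are built from α1, β1, δ and ε subunits, and fetal or denervated fibres use the γ subunit in place of ε. In innervated fibres the subunit genes are transcribed mainly in the few nuclei beneath the synapse, where agrin from the nerve acts through MuSK to cluster the receptors. When nerve activity is lost, nuclei along the whole fibre express Chrna1, Chrnb1, Chrnd, Chrng, Musk, Ncam1, Gadd45a and Runx1, with myogenin acting through E-boxes in the receptor promoters, while synaptic transcription of Chrne depends on ETS factors that bind an N-box.

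Promoter windows reaching from 250 bases before to 50 bases after the transcription start were available from RefSeq (GRCm38.p6) for 7 of the 9 genes, in 8 windows, and those of the α1, β1 and ε subunits are shown because Chrna1 and Chrnb1 had a high correlation between muscles and Chrne lower ones with most members. Each sequence runs from position -250 to -24 relative to the start, with capitals marking matches to the E-box CANNTG or to the N-box core CCGGAA, searched on both strands. All 3 lie on the minus strand, at chr2:73580362-73580588 (Chrna1), chr11:69795961-69796187 (Chrnb1) and chr11:70619218-70619444 (Chrne).
Chrna1: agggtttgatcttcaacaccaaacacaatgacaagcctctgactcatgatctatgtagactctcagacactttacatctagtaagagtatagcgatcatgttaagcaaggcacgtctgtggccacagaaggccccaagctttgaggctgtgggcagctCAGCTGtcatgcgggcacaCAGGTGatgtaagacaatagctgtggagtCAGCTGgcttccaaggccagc
Chrnb1: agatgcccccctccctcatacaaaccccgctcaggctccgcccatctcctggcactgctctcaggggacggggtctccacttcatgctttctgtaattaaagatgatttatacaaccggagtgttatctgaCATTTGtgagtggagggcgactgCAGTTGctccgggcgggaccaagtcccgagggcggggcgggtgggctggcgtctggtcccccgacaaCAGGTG
Chrne: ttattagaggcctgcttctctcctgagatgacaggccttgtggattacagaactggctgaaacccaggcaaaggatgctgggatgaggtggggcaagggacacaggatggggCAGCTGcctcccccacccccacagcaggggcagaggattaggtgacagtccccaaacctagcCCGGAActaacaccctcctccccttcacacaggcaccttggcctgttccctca
Chrna1 and Chrnb1 each held 3 E-boxes. In Chrna1 they began at -92, -73 and -44, and those at -92 and -44 read CAGCTG. In Chrnb1 they began at -119, -96 and -29. Chrne held 1 E-box, CAGCTG at -138, and an N-box core at -76. Of 32851 promoter windows of this length, 72.3% held at least 1 CANNTG, 17.6% held 3 or more, and 14.9% held CCGGAA. Chrng, Musk and the first window of Runx1 also held 3 E-boxes, while the second window of Runx1 held 0. Gadd45a held an N-box core at -23 and the second window of Runx1 held 1 at -106. These matches describe the letters of the windows and are not binding sites.

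Between 13286983 and 22987237 reads were counted on genes per muscle. The share taken by Ttn, the gene of titin, followed the library numbers of the labels, from 7.02% to 11.03% in libraries 1 to 5 (all control), 16.4% to 21.1% in libraries 6 to 15 (5 muscles of each treatment) and 14.2% to 14.7% in libraries 16 to 20 (all secretome-treated). Outside libraries 6 to 15 the treatment and the library number cannot be told apart, so each comparison was also made within libraries 6 to 15. Markers of muscle fibres were abundant in all libraries, summing to at least 120600 CPM (Ttn averaged 159900 CPM). A change in the share of a cell type cannot be told apart from a change in RNA per cell. Leukocyte markers, led by Ptprc, summed to 11.7 to 140.1 CPM in controls and 9.63 to 131.4 CPM in secretome-treated muscles. Of the 9 markers, 7 were tested in edgeR, and 0 passed a 5% false discovery rate between treatments (1 lower at an unadjusted p under 0.05). Cd3e averaged 0.539 CPM in controls and 0.042 CPM after secretome, and Cd79a 0.523 and 0.079 CPM. Both were too low to be tested in edgeR. DESeq2 gave p-values for all 9 and called 2 lower, where it called 146 lower and 70 higher among all genes.

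Expression was read as CPM, the counts scaled to a common library size after correction for composition. Divided by exon length, Gadd45a was the most abundant of the 9 genes, at 37.3 ± 24.7 CPM per kb (SD, n = 20), followed by Musk at 23.3 ± 6.00 CPM per kb and Chrnb1 at 13.03 ± 4.09 CPM per kb. Chrne (4.90 ± 1.67 CPM per kb), Runx1 (4.18 ± 2.11 CPM per kb) and Chrna1 (3.75 ± 2.20 CPM per kb) lay within each other's spread. Ncam1 (1.09 ± 0.330 CPM per kb) and Chrnd (0.915 ± 0.572 CPM per kb) were lower and also overlapped, and Chrng was lowest at 0.153 ± 0.197 CPM per kb. Within the receptor, β1 mRNA therefore exceeded α1, δ and ε mRNA per kb of exon.

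None of the 9 genes differed between treatments beyond the spread between muscles. Of the 8 genes with enough counts to be tested, 0 passed a 5% false discovery rate and 0 had an unadjusted p under 0.05 in edgeR's quasi-likelihood test (two-sided, Benjamini-Hochberg adjustment), against 0.00691% of all 14471 tested genes past the false discovery rate and 15.7% at the unadjusted threshold (6.52% higher and 9.21% lower). DESeq2 also called 0 of the 9. Of the 8, 6 had a log2 fold change below 0, with a median of -0.22, compared with 55.9% of all tested genes and a median of -0.03.

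Among the receptor subunits, Chrna1 (ENSMUSG00000027107), which encodes the acetylcholine-binding α1 subunit, ranged from 3.68 to 43.1 CPM in controls with a median of 15.2 CPM. In secretome-treated muscles it ranged from 3.57 to 25.7 CPM with a median of 16.1 CPM. The treatments overlapped over nearly the whole range, with a log2 fold change (secretome over saline) of -0.24 ± 0.384 (SE; adjusted p = 0.783), which became 0.0036 without control 9, the highest muscle. Chrnb1 (ENSMUSG00000041189), the β1 subunit, ranged from 12.6 to 48.3 CPM in controls (median 33.6 CPM) and from 17.6 to 47.1 CPM after secretome (median 36.1 CPM). Its fold change of 0.08 ± 0.212 on the log2 scale (adjusted p = 0.873) was smaller than its standard error, and it was -0.01 without control 5.

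Chrnd (ENSMUSG00000026251), the δ subunit, had the largest difference in size among the 8. It ranged from 0.737 to 9.16 CPM in controls with a median of 2.90 CPM, and from 0.810 to 4.44 CPM after secretome with a median of 2.38 CPM. Here 7 of 10 secretome-treated muscles lay below the control median, and the range after secretome lay inside that of the controls. The log2 fold change was -0.57 ± 0.339 (adjusted p = 0.410). It was -0.30 without control 9, and its unadjusted p fell to 0.0328 without control 5 and 0.0483 without secretome replicate 8, with adjusted p of 0.245 and 0.324.

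Chrne (ENSMUSG00000014609), the adult ε subunit, ranged from 5.71 to 13.95 CPM in controls (median 7.76 CPM) and from 4.57 to 12.7 CPM after secretome (median 6.47 CPM). The treatments overlapped, and the log2 fold change was -0.21 ± 0.199 (adjusted p = 0.624). Chrng (ENSMUSG00000026253), the fetal γ subunit, had 0 to 63 counts per library and did not pass the filter on low counts. It ranged from 0 to 3.496 CPM in controls (median 0.564 CPM) and from 0 to 1.09 CPM after secretome (median 0.253 CPM), with muscles of both treatments at 0. Fitted without the filter, its log2 fold change was -1.13 (unadjusted p = 0.118, adjusted p = 0.463), from few counts. Within libraries 6 to 15 it was -1.45 (unadjusted p = 0.129, adjusted p = 0.572) and -1.48 in DESeq2 (unadjusted p = 0.0508, adjusted p = 0.495). There the unadjusted p was 0.0397 without control 6 and 0.0441 without control 7, with adjusted p of 0.589 and 0.574.

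Musk (ENSMUSG00000057280), which encodes the agrin-responsive kinase that anchors receptor clusters, was the other gene above 0. Controls ranged from 47.2 to 131.0 CPM with a median of 70.1 CPM, and secretome-treated muscles from 76.4 to 113.8 CPM with a median of 94.4 CPM. All 10 secretome-treated muscles lay above the control median, yet all 10 lay inside the control range. The log2 fold change was 0.23 ± 0.157 (adjusted p = 0.478). Without control 1, the highest muscle, it was 0.33 with an unadjusted p of 0.0321 and an adjusted p of 0.260. Within libraries 6 to 15 the control median was 95.5 CPM, and 2 of the secretome-treated muscles there lay below it. The log2 fold change in that range was 0.11 ± 0.150 (adjusted p = 0.797).

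Ncam1 (ENSMUSG00000039542), whose protein marks denervated and regenerating fibres as well as the synapse, ranged from 5.40 to 15.6 CPM in controls (median 9.64 CPM) and from 5.92 to 11.9 CPM after secretome (median 8.33 CPM). Its log2 fold change was -0.22 ± 0.176 (adjusted p = 0.538), and with terms for the 3 ranges of libraries it was -0.49 with an unadjusted p of 0.00778, still short of the false discovery rate. Gadd45a (ENSMUSG00000036390), a stress-induced gene that promotes fibre atrophy after denervation, ranged from 16.1 to 223.5 CPM in controls (median 55.04 CPM) and from 13.8 to 85.6 CPM after secretome (median 61.0 CPM). Control 9 stood far above every other muscle, and without it the log2 fold change of -0.32 ± 0.371 (adjusted p = 0.695) became 0.06. Runx1 (ENSMUSG00000022952), a transcription factor that preserves denervated fibres, ranged from 9.12 to 99.6 CPM in controls (median 52.5 CPM) and from 8.38 to 67.5 CPM after secretome (median 51.4 CPM). The medians nearly coincided, and the log2 fold change was -0.18 ± 0.375 (adjusted p = 0.839).

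**Figure D1:**
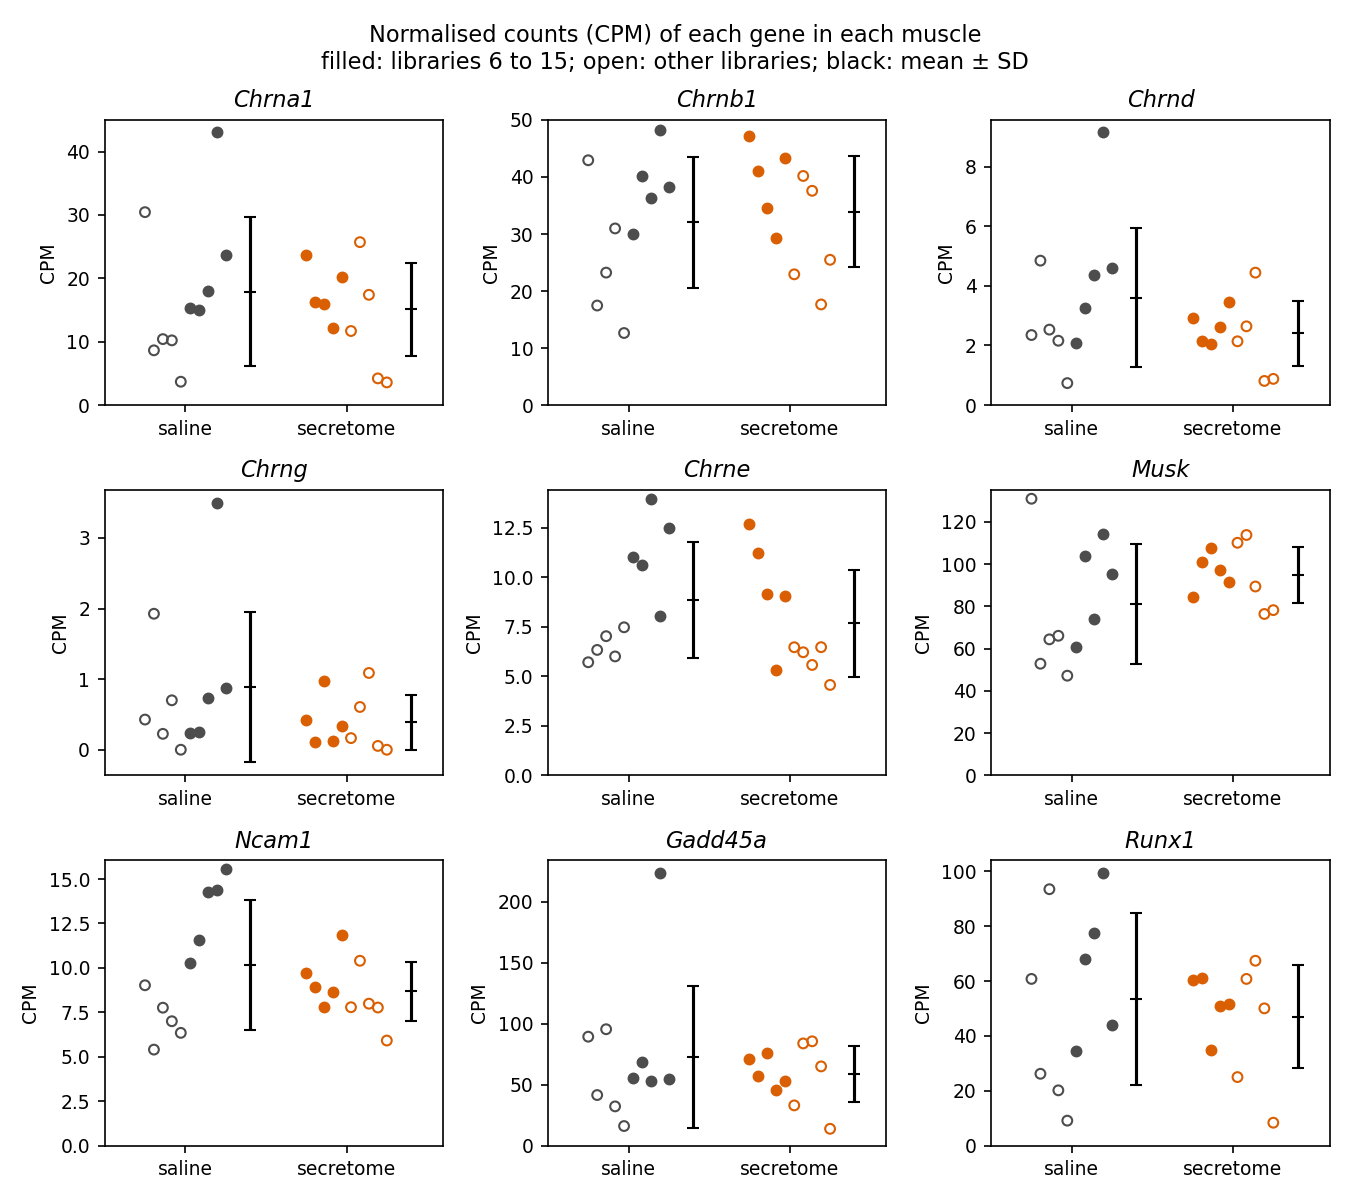
Each panel plots the CPM of 1 gene in each of 20 muscles, 10 control (grey) and 10 secretome-treated (orange), with filled points for libraries 6 to 15, open points for the other libraries and black bars for mean ± SD. The treatments overlap in all 9 panels, and control 9 is the highest grey point in Chrna1, Chrnb1, Chrnd, Chrng, Gadd45a and Runx1.

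Within libraries 6 to 15, with 5 muscles of each treatment, 0 of the 8 tested genes passed the false discovery rate, as for all 14469 genes tested there (0.0% called). At an unadjusted p under 0.05, 2 of the 8 were lower after secretome, Chrnd and Ncam1, against 4.92% of all genes lower, 5.02% higher and 9.95% in either direction. DESeq2 likewise called 0 at the false discovery rate and had 2 at the unadjusted threshold. The ranges of the treatments overlapped in all 9 genes, and the share of all genes with such overlap was not counted.

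Some cell markers were lower in the same libraries. At an unadjusted p under 0.05 they were 2 of 7 tested leukocyte markers, 2 of 5 satellite cell and myoblast markers, 1 of 5 endothelial and 1 of 4 adipocyte markers, and 0 of 7 Schwann cell, 0 of 5 fibro-adipogenic and 0 of 9 fibre markers. Adgre1 (-0.95, adjusted p = 0.416), Ptprc (-0.78, adjusted p = 0.452), Vcam1 (-0.72, adjusted p = 0.433) and Vwf (-0.59, adjusted p = 0.398) were among them, and none passed the false discovery rate in edgeR, while DESeq2 called 1 endothelial marker and had 4 leukocyte markers lower at the unadjusted threshold. The summed leukocyte markers ranged from 28.9 to 40.9 CPM in these controls and from 9.63 to 42.4 CPM after secretome. Sums of satellite cell and myoblast markers, mostly Des, ranged from 3299 to 5654 and from 2515 to 3660 CPM. The 2 lower markers of that list were Vcam1 and Des (-0.39, adjusted p = 0.470). Over all 20 libraries Des averaged 3356 CPM, against 1.85 CPM for Pax7 and 1.48 CPM for Myf5. The sum therefore followed Des, and which cells the Des reads came from was not tested. Pax7 (0.12, adjusted p = 0.86), Myf5 (0.07, adjusted p = 0.95) and Cdh15 (-0.04, adjusted p = 0.95) did not pass the unadjusted threshold. Endothelial sums ranged from 143.7 to 243.6 and from 147.2 to 196.9 CPM, and adipocyte sums from 19.1 to 34.1 and from 9.24 to 30.4 CPM. The part of these cells in the values of Chrnd and Ncam1 was not tested.

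In Ncam1 the 5 controls of this range had 10.3, 11.6, 14.3, 14.4 and 15.6 CPM, and the 5 secretome-treated muscles had 7.82, 8.67, 8.92, 9.72 and 11.9 CPM. Thus 4 of 5 secretome-treated muscles lay below every control. The log2 fold change was -0.48 ± 0.152 (unadjusted p = 0.00739, adjusted p = 0.436, edgeR), and the unadjusted p stayed under 0.05 without each of the 10 muscles in turn. In the other 10 libraries the log2 fold change was 0.17 ± 0.185 (unadjusted p = 0.385, edgeR). There 6.53% of genes were higher and 9.56% lower at an unadjusted p under 0.05. The difference between the 2 estimates did not pass the false discovery rate (interaction, unadjusted p = 0.0106, adjusted p = 0.292), where 0.0451% of genes did and 5.44% in each direction had an unadjusted p under 0.05.

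In Chrnd the 5 controls of this range had 2.09, 3.26, 4.36, 4.58 and 9.16 CPM, and the secretome-treated muscles had 2.06, 2.15, 2.62, 2.92 and 3.46 CPM. All 5 secretome-treated muscles lay below the control median, with the lowest control at the level of the lowest treated muscles. The log2 fold change was -0.81 ± 0.330 (unadjusted p = 0.0279, adjusted p = 0.470), and it was -0.42 with an unadjusted p of 0.125 without control 9. Leaving out secretome replicate 2 or 3 also took the unadjusted p past 0.05, to 0.0622 and 0.0610. The interaction with library range was smaller than its spread (adjusted p = 0.768).

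**Figure D2:**
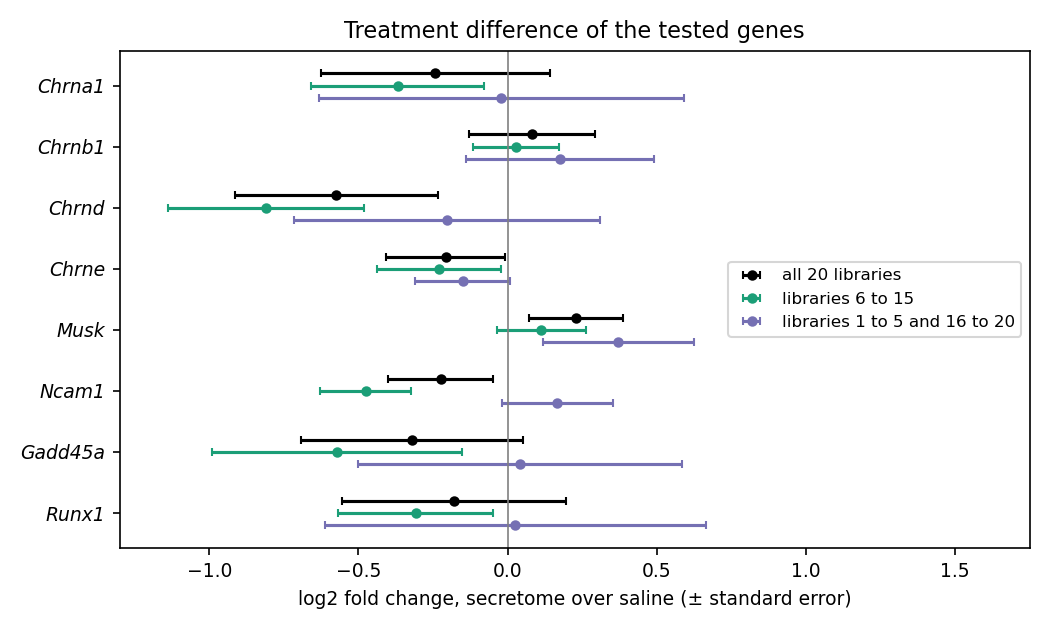
Points are log2 fold changes of secretome over saline from edgeR and bars are ± 1 standard error, for the 8 tested genes in all 20 libraries (black), in libraries 6 to 15 (green) and in the other libraries (purple), where treatment and library number cannot be told apart. Chrnd and Ncam1 lie lowest relative to their errors in libraries 6 to 15, at -0.81 and -0.48, and no estimate passed the false discovery rate.

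The receptor can be assembled with γ or with ε, so their counts were set against each other in every muscle. In controls, γ made up 0% to 30.3% of γ plus ε counts with a median of 5.74%. In secretome-treated muscles it made up 0% to 16.3% with a median of 2.86%. The ranges overlapped, with the highest share in a control and muscles of both treatments at 0. Since γ has the longer exons, the share per kb of exon was lower, from 0% to 14.99% in controls (median 2.41%) and from 0% to 7.33% after secretome (median 1.18%).

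Control 9 had 63 γ and 145 ε counts, a share of 30.3% (95% Clopper-Pearson interval 24.1% to 37.0%; 14.99% per kb). Control 2 had 31 γ and 102 ε counts (23.3%, interval 16.4% to 31.4%; 10.98% per kb), and secretome replicate 8 had 23 and 118 (16.3%, interval 10.6% to 23.5%; 7.33% per kb). These 3 muscles also had 3 of the 4 highest Chrnd levels. Control 5 had 0 γ beside 132 ε counts, which allows a share of counts of up to 2.27% if 3 counts are taken as the limit and 2.76% by the Clopper-Pearson interval. Secretome replicate 10 had 0 beside 78, which allows up to 3.85% and 4.62%. The intervals and limits cover counting error only.

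The other genes of the pathway were read from lists grouped by function. Of all tested genes, 6.52% were higher and 9.21% lower at an unadjusted p under 0.05 in edgeR. Of 11 other nicotinic receptor subunits, 9 were too low to test, with at most 19 counts in a library (Chrnb2), and 0 of the other 2 passed at either threshold. Chrna9 had a log2 fold change of -0.998 ± 0.615 and Chrna2 of 0.48 ± 0.552.

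Of 31 genes of the agrin pathway and of receptor clustering, 30 were tested and 0 passed the false discovery rate, with 0 higher and 1 lower at an unadjusted p under 0.05 (DESeq2: 2 higher, 0 lower) and a median log2 fold change of -0.03. The smallest p were those of Utrn, the synaptic homologue of dystrophin (-0.17 ± 0.081, adjusted p = 0.316), Pdzrn3, a ubiquitin ligase that binds MuSK (0.22 ± 0.105, adjusted p = 0.318), and Cdk5 (-0.33 ± 0.165, adjusted p = 0.335). Of 15 transcription factors and deacetylases of the denervation response, 0 passed, with 1 higher and 0 lower at the unadjusted threshold (DESeq2: 2 and 0). Mef2c (0.35 ± 0.160, adjusted p = 0.291), Mef2a (0.29 ± 0.149, adjusted p = 0.340) and Id1 (-0.31 ± 0.155, adjusted p = 0.341) came first. The median of this list was -0.04.

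Of 22 other denervation-responsive muscle genes, 0 passed in either edgeR or DESeq2, with 1 higher and 3 lower at the unadjusted threshold in both tools and a median of -0.15. The embryonic and perinatal myosins came first: Myh8 had 16.4 ± 10.98 CPM in controls and 8.79 ± 2.697 CPM after secretome (SD, n = 10; log2 fold change -0.90 ± 0.294, adjusted p = 0.181), and Myh3 had 6.53 ± 7.33 and 2.30 ± 1.36 CPM (-1.50 ± 0.499, adjusted p = 0.189). Fbxo30, a ubiquitin ligase of muscle wasting, followed at 0.29 ± 0.126 (adjusted p = 0.271). Within libraries 6 to 15 the list had a median of -0.38, with 1 higher and 5 lower at the unadjusted threshold and 0 past the false discovery rate in either tool. Of all genes tested there, 5.02% were higher and 4.92% lower at the unadjusted threshold in edgeR.

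Between muscles of the same treatment, 4 of the 8 tested genes varied more than most of the transcriptome. The SD of log2 CPM within treatment was 1.01 in Runx1, 0.98 in Chrna1, 0.91 in Gadd45a and 0.84 in Chrnd, above 98.3%, 98.0%, 97.2% and 95.7% of all tested genes, whose median was 0.33. From the lowest to the highest of the 20 muscles, CPM differed 16.2-fold in Gadd45a, 12.4-fold in Chrnd, 12.1-fold in Chrna1 and 11.9-fold in Runx1. The SDs of these 4 lay at percentile 92.0 or above without any 1 muscle, and at percentiles 82.6 to 92.9 within libraries 6 to 15.

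The other 4 lay nearer the middle. Chrnb1 had an SD of 0.54 (percentile 79.7), Chrne 0.47 (72.2), Ncam1 0.42 (65.4) and Musk 0.38 (58.4), with 2.78-fold to 3.82-fold between the lowest and highest muscles. Low-count genes vary more by sampling alone, so the coefficient of variation that edgeR estimates beyond counting error was ranked too. It was at percentiles 95.1 to 97.3 in Chrna1, Chrnd, Gadd45a and Runx1 and at 57.7 to 76.7 in the other 4.

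**Figure D3:**
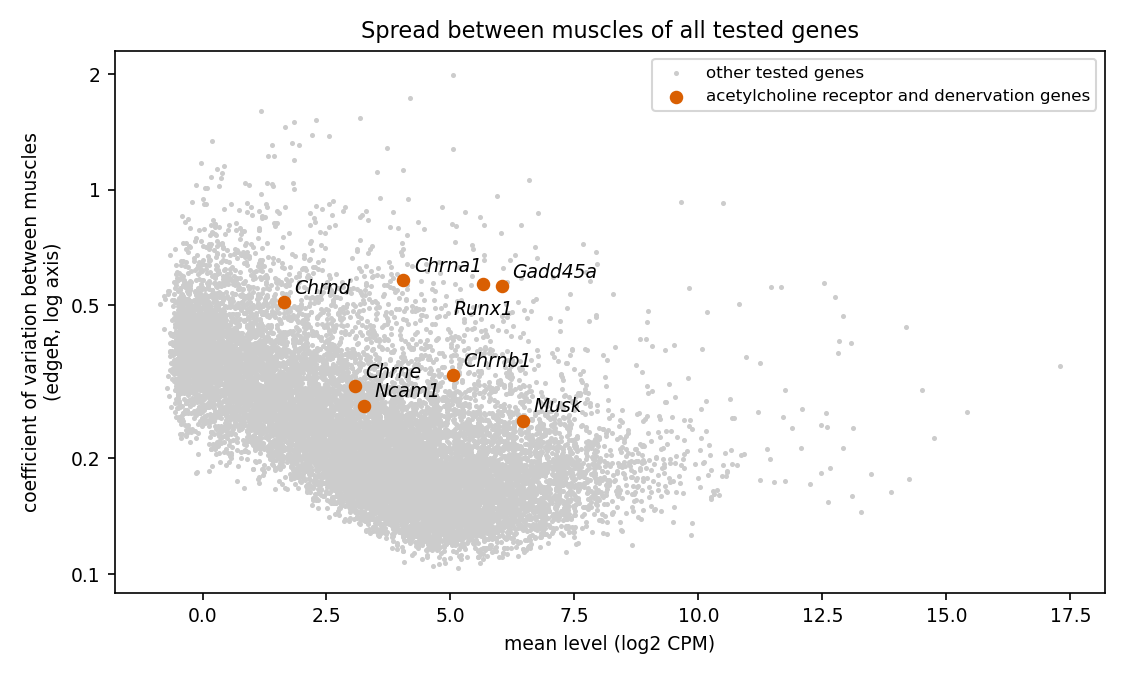
Each point is 1 of 14471 tested genes, with its mean level in log2 CPM against the coefficient of variation between muscles that edgeR estimated (log axis). Chrna1, Chrnd, Gadd45a and Runx1 lie between 0.51 and 0.58, above most genes of like level, while Musk and Ncam1 lie at 0.25 and 0.27.

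The spread was also compared between treatments, by permuting each gene's absolute deviations from its treatment median (100000 resamples, two-sided, adjusted over all tested genes). Musk had an SD of 0.50 in controls and 0.20 after secretome (p = 0.0195, adjusted p = 0.472), and Ncam1 had 0.53 and 0.27 (p = 0.0228, adjusted p = 0.481). Neither passed, and the other 6 had p of at least 0.350. Of all tested genes, 0.0346% passed the false discovery rate, 9.2% had an unadjusted p under 0.05, and 75.8% had the smaller spread after secretome, so the direction in Musk and Ncam1 was that of most genes.

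The same muscles stood at the ends of the range for most of the 9 genes. Control 9 was the highest in 6 of the 9 and among the top 3 in 8. Control 5 was among the lowest 3 in 8 genes, and secretome replicate 10 in 7. Chrne was the exception in both controls, with 8.05 CPM in control 9 and 7.48 CPM in control 5, near the middle of the 20 muscles, while it was lowest in secretome replicate 10.

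To describe this, log2 CPM was centred on the treatment mean and the genes were correlated over the 20 muscles. The 21 pairs of tested genes without Chrne had Pearson's r from 0.48 to 0.90 with a median of 0.67. Within libraries 6 to 15 they had r from 0.09 to 0.83 with a median of 0.59, and centred within treatment and library range the median was 0.60. The 7 pairs with Chrne had r from 0.10 to 0.64 with a median of 0.37, and from -0.37 to 0.34 within libraries 6 to 15. Whether Chrne differed from the others in this was not tested.

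**Figure D4:**
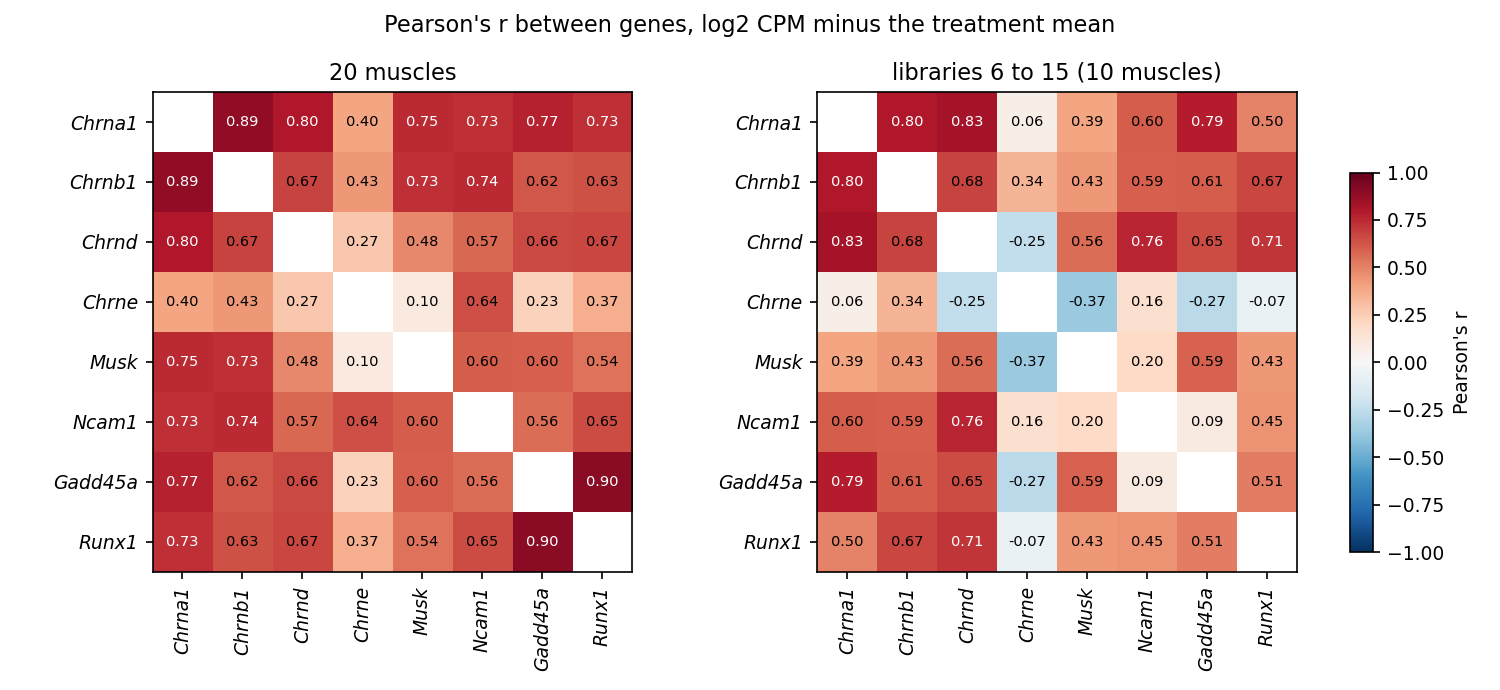
Each cell holds Pearson's r between the log2 CPM of 2 genes after subtraction of the treatment mean, over 20 muscles on the left and over the 10 muscles of libraries 6 to 15 on the right, coloured from -1 (blue) to 1 (red). All pairs without Chrne are positive in both panels, the palest being Ncam1 with Gadd45a on the right (0.09), and 4 of the 7 pairs with Chrne are blue on the right.

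Each tested gene was then compared with all 14470 others by permuting its values within treatment (100000 resamples, two-sided), with Benjamini-Hochberg adjustment for each gene. Of the 7 other tested members, 5 passed a 5% false discovery rate with Chrna1, against 0.836% of all genes. Its closest partner among the members was Chrnb1 (r = 0.887, adjusted p = 0.00724, permutation test). These subunits also passed on ranks (Spearman's rho = 0.880, adjusted p = 0.00851), with r = 0.893 without the 2 muscles farthest from the median of Chrna1 and r = 0.804 within libraries 6 to 15.

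Ncam1 also passed with Chrna1 by both measures (r = 0.734, adjusted p = 0.0320; rho = 0.788, adjusted p = 0.0354), with r = 0.646 without the 2 farthest muscles and 0.605 within libraries 6 to 15. Chrnd (r = 0.799, adjusted p = 0.0320), Gadd45a (r = 0.766, adjusted p = 0.0411) and Musk (r = 0.746, adjusted p = 0.0210) passed by Pearson's r but not on ranks, with rho of 0.600, 0.660 and 0.728 and adjusted p of 0.251, 0.165 and 0.0853. Without the 2 farthest muscles, control 5 and secretome replicate 10, their r was 0.650, 0.544 and 0.682. Runx1 (r = 0.729, adjusted p = 0.0625) and Chrne (r = 0.398, adjusted p = 0.477) did not pass with Chrna1.

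The adjustment depends on which gene of a pair is compared with all others. Taken from the other side, Chrna1 did not pass with Chrnd (adjusted p = 0.0663), Ncam1 (0.0506 by r, 0.0255 by rho) or Musk (0.358), passed with Runx1 (0.0404), and passed again with Chrnb1 (0.0131) and Gadd45a (0.0338). The background shares were 0.484% for Chrnb1, 0.0207% for Chrnd, 0.988% for Chrne, 0.0% for Musk, 0.422% for Ncam1 (0.131% positive), 0.926% for Gadd45a and 1.81% for Runx1.

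Gadd45a and Runx1 had the highest Pearson r of the 28 pairs over the 20 muscles, while on ranks and within libraries 6 to 15 Chrna1 with Chrnb1 was higher. Gadd45a and Runx1 passed by both measures (r = 0.900, adjusted p = 0.00904; rho = 0.785, adjusted p = 0.0413), with r = 0.870 without the muscles farthest in Gadd45a (secretome replicate 10 and control 9), r = 0.771 without those farthest in Runx1 (secretome replicate 10 and control 5) and r = 0.510 within libraries 6 to 15. Leaving out each muscle in turn, r ranged from 0.859 to 0.929 for this pair and from 0.847 to 0.927 for Chrna1 with Chrnb1.

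**Figure D5:**
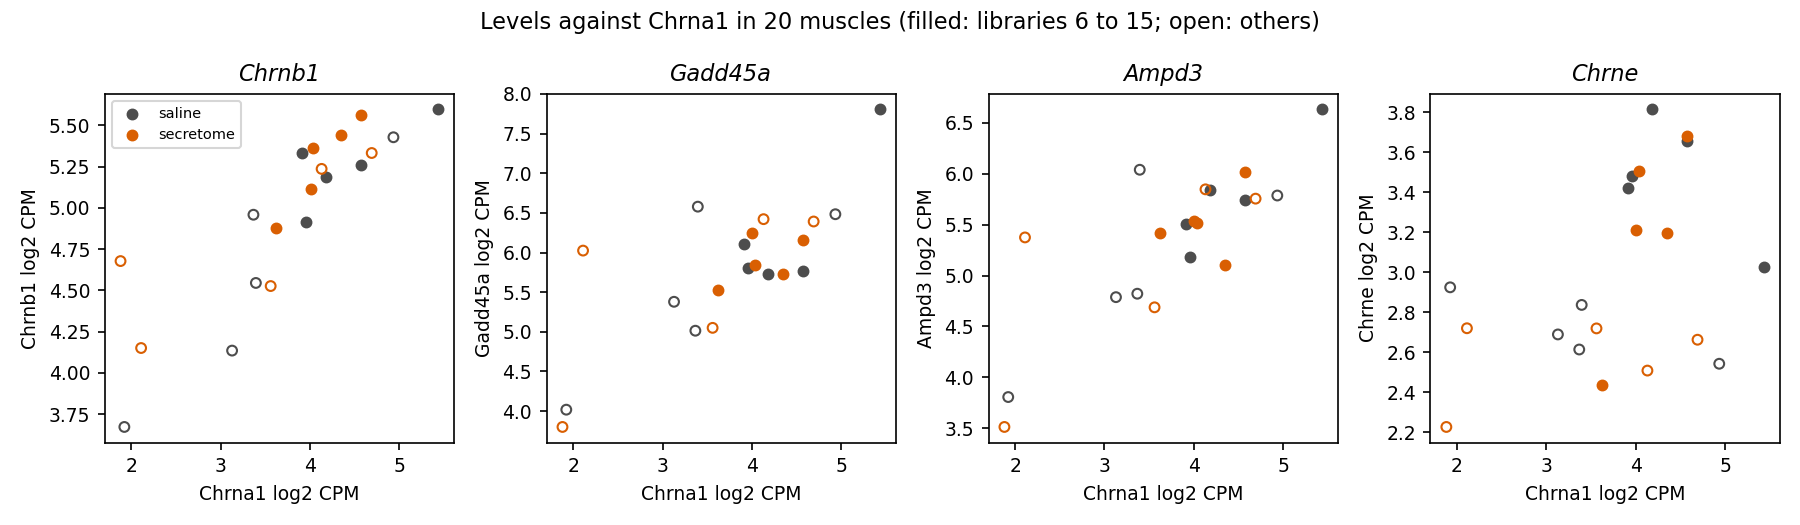
The log2 CPM of Chrnb1, Gadd45a, Ampd3 and Chrne is plotted against that of Chrna1 in 20 muscles, control in grey and secretome-treated in orange, with filled points for libraries 6 to 15. Chrnb1, Gadd45a and Ampd3 rise with Chrna1 (r = 0.887, 0.766 and 0.800 after centring on treatment), while Chrne separates by library range with the filled points mostly on top (r = 0.398).

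The 3 named genes with the highest r over the 20 muscles were taken for each member, among those that averaged 1 CPM or more. Of these 24 partners, 19 passed by r and 17 by rho, with r from 0.647 to 0.909 without the 2 farthest muscles and from 0.510 to 0.955 within libraries 6 to 15. The partners were chosen by r in these same muscles. How many passed therefore follows largely from the choice and is given as description only. Runx1 and Gadd45a shared their closest partner, Ampd3, an AMP deaminase that is induced in denervated muscle (r = 0.949 and 0.945, adjusted p = 0.00482 and 0.00904; rho = 0.845 and 0.848, adjusted p = 0.00815 and 0.0341). Without the 2 farthest muscles of each member these r were 0.870 and 0.909, and within libraries 6 to 15 they were 0.669 and 0.786. Next to Runx1 stood Rrad, a Ras-related GTPase (r = 0.935), and Gadd45a itself. Next to Gadd45a stood H3f3b (r = 0.926), which has near-identical copies that can share reads, and Arl6ip5 (r = 0.904).

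Closest to Chrna1 were Gm27005 (r = 0.926), a processed pseudogene whose reads are uncertain, Plekhh1 (r = 0.920) and Parp4 (r = 0.909). Chrnb1 was closest to Chrna1, the receptor Gprc5b (r = 0.875) and the phosphatase Ptpn14 (r = 0.870). Chrnd was closest to Kcnn3, a calcium-activated potassium channel that appears in denervated muscle (r = 0.863, adjusted p = 0.0482; rho = 0.821, adjusted p = 0.174), then to Ttc9 (r = 0.821) and Slc43a2 (r = 0.819), which did not pass. Ncam1 was closest to Sertad2 (r = 0.864), Rab3gap1 (r = 0.860) and Gas6 (r = 0.848). Musk was closest to Elk4 (r = 0.783), Uso1 (r = 0.781) and Tgfbr1 (r = 0.777), and none of these passed (adjusted p = 0.358). Chrne had other partners, Fryl (r = 0.867), the splicing regulator Rbfox2 (r = 0.852) and the imprinted RNA Peg13 (r = 0.845).

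Among the 22 other denervation-responsive genes, 5 passed with Chrna1, 6 with Gadd45a and 7 with Runx1, all with positive r, while 2 passed with Chrnb1 and 0 with Chrnd, Chrne, Musk or Ncam1. The shares of all genes that passed with a positive r were 0.581% for Chrna1, 0.339% for Chrnb1, 0.774% for Gadd45a and 1.58% for Runx1. They were 0.00691% for Chrnd, 0.235% for Chrne, 0.0% for Musk and 0.131% for Ncam1. The median r with the list was 0.58 for Gadd45a, 0.48 for Runx1, 0.43 for Chrnd and 0.39 for Chrna1. It was 0.37 for Musk, 0.36 for Ncam1, 0.34 for Chrnb1 and 0.09 for Chrne. Sln, which encodes the calcium pump inhibitor sarcolipin (r = 0.857, adjusted p = 0.00724; rho = 0.838, adjusted p = 0.00851), and Col19a1, a collagen (r = 0.850, adjusted p = 0.0107; rho = 0.853, adjusted p = 0.00851), passed with Chrna1 by both measures. Their r was 0.772 and 0.816 without the 2 farthest muscles and 0.803 and 0.842 within libraries 6 to 15. Ampd3 (r = 0.800), the cell-cycle inhibitor Cdkn1a (r = 0.794) and the receptor Eda2r (r = 0.770) passed with Chrna1 by Pearson's r but not on ranks. The atrophy ligases Trim63 (r = -0.15, adjusted p = 0.858) and Fbxo32 (r = -0.03, adjusted p = 0.979) and the myogenic factors Myog (r = 0.31, adjusted p = 0.632) and Myod1 (r = -0.31, adjusted p = 0.623) did not pass with Chrna1.

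Of the 30 agrin pathway genes, 0 passed with 5 of the members. With each of Chrne, Gadd45a and Runx1 1 passed, against 0.235%, 0.774% and 1.58% of all genes with a positive r. With Chrne it was Ache, the synaptic acetylcholinesterase (r = 0.797, adjusted p = 0.0248; rho = 0.833, adjusted p = 0.0322). Its r was 0.715 without the 2 farthest muscles, 0.647 within libraries 6 to 15 and 0.590 centred within treatment and library range. With Gadd45a and Runx1 it was Erbb2, a neuregulin receptor (r = 0.796 and 0.783), which did not pass on ranks. Of the 15 transcription factors and deacetylases, Sik1 passed with Chrna1, Gadd45a and Runx1 (r = 0.771, 0.805 and 0.830), but on ranks with Runx1 alone (rho = 0.853, adjusted p = 0.00762). Runx1 passed also with the activity-induced factor Egr1 (r = 0.893; rho = 0.836, adjusted p = 0.00815).

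Chrne followed the library numbers. It averaged 6.51 ± 0.729 CPM in libraries 1 to 5 (n = 5), 10.4 ± 2.54 CPM in libraries 6 to 15 (n = 10) and 5.86 ± 0.811 CPM in libraries 16 to 20 (n = 5). Ncam1 was also highest in libraries 6 to 15, at 7.11 ± 1.38, 11.3 ± 2.69 and 7.97 ± 1.598 CPM. Chrnb1 had 25.45 ± 11.93, 38.8 ± 6.47 and 28.8 ± 9.70 CPM. Chrna1, Chrnd, Chrng, Gadd45a and Runx1 had their highest means there too, with overlapping SDs. Musk averaged 72.3, 93.1 and 93.6 CPM in the 3 ranges. Among the marker lists, Chrne passed with Ttn (r = 0.752, adjusted p = 0.0204; rho = 0.777, adjusted p = 0.0345), with r = 0.665 within libraries 6 to 15, and inversely with the fibroblast markers Pdgfra (r = -0.759, adjusted p = 0.0379) and Dpt (r = -0.728, adjusted p = 0.0403), which were not called on ranks and had r of -0.447 and -0.473 within libraries 6 to 15. Centred within treatment and library range, the r of Chrne was nearer to 0, at 0.316 with Ttn, -0.233 with Pdgfra and -0.303 with Dpt. The summed markers of fibro-adipogenic progenitors ranged from 187.6 to 767.4 CPM in controls, where they were led by Dcn, and from 239.6 to 497.6 CPM after secretome. The part of these cells or of the library range in the levels of these genes was not tested.

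Runx1 passed with 3 of 7 tested leukocyte markers, against 1.58% of all genes with a positive r. They were Csf3r (r = 0.780, adjusted p = 0.0162), S100a9 (r = 0.753, adjusted p = 0.00991) and S100a8 (r = 0.649, adjusted p = 0.0400), which mark neutrophils. Gadd45a passed with S100a9 (r = 0.730, adjusted p = 0.0257), against 0.774% of all genes. Within libraries 6 to 15 the 3 r of Runx1 were 0.492, 0.404 and 0.427, and all 3 passed on ranks over the 20 muscles while S100a9 with Gadd45a did not. Runx1 passed inversely with the endothelial marker Tek by r (-0.725, adjusted p = 0.0370) but not on ranks. Ptprc, the general leukocyte marker, did not pass with Runx1 (r = 0.644, adjusted p = 0.0860). Runx1 is also expressed in blood cells, and their part in its level was not tested. The leukocyte sum was highest in control 3, where Runx1 was 93.5 CPM and Chrna1 10.4 CPM, and in secretome replicate 8, where Runx1 was 67.5 CPM and Chrna1 17.4 CPM. With Chrna1, Chrnb1, Chrnd, Musk and Ncam1, 0 markers of any of the 7 cell types passed. Of all genes, 0.836%, 0.484%, 0.0207%, 0.0% and 0.422% passed with these members, in either direction. Such shares leave little room for a count above 0 in lists of 4 to 9 tested markers. Ncam1 had a higher r with Ttn (0.810) than Chrne had (0.752), yet it did not pass (adjusted p = 0.0600, permutation test). Each member has its own permutations and its own adjustment. The summed markers of Schwann cells (31.9 to 43.7 CPM in controls, 25.1 to 40.9 CPM after secretome, led by Pmp22), satellite cells and myoblasts (2176 to 5913 and 2515 to 3918 CPM, mostly Des), endothelium (131.8 to 243.6 and 128.5 to 196.9 CPM, led by Cdh5) and adipocytes (18.5 to 118.7 and 9.24 to 50.5 CPM, led by Plin1) overlapped between treatments. No marker of any list was at 0 in all libraries.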

How the data were processed

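Per the labels, RNA of 20 injected quadriceps was made into stranded total-RNA libraries, and the authors deposited whole-number counts of reads per Ensembl gene, 1 column per muscle, without normalization. The labels give the tissue as quadriceps, but their extraction text speaks of myotubes. According to the submitters' processing notes, cutadapt 1.16, STAR 2.7.9a, featureCounts 1.6.3 and DESeq2 1.34.0 were used with the build GRCm39, and the strand setting of the counting is not given in the sources used here. Reads of Gadd45a and of a gene on the opposite strand, with up to 110 counts, may therefore not be separated. Symbols and exon lengths came from GENCODE M21, and promoter windows from RefSeq GRCm38.p6, whose coordinates are those of that build.

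Groups came from the labels. Low counts were removed by filterByExpr (edgeR 4.0.16), which kept 14471 genes, and the rest were normalized by TMM and tested with the robust quasi-likelihood test, treatment as the term, at a 5% false discovery rate. Totals of 13286983 to 22987237 counts per muscle set the precision, and Chrng, with at most 63 counts, was below the filter. Log2 CPM used a prior count of 2. Standard errors were the fold change over the root of F. Each muscle is a separate mouse, and p-values measure the spread between mice. No pair of columns was identical. The replicate numbers of the titles do not pair the muscles (correlations of deviations -0.24 to 0.22, over 0.1 in 2 of 10 numbers).

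Named genes were the 9 members, the 3 genes most correlated with each, the 3 smallest p of each pathway list, and the most abundant marker of each cell list. Other list genes named in the text are those that passed with a member, or were chosen after their values were seen. The members and lists were chosen with earlier results of these data known. Alternatives were DESeq2 1.42.0, RLE, no filter, a replicate block, limma 3.58.1 voom, terms for library number, another prior count, and each muscle left out. The correlations without each muscle, those centred on library range, the γ shares and the marker sums within libraries 6 to 15 were added after seeing the data. The procedures were tested on simulated data.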

Additional observations from a re-analysis of the deposited data

Results flagged for a closer look

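In 3 of 32 groups of muscles examined, the highest or lowest value of a member lay farther from its neighbour than Dixon's 95% limit allows; chance flags about 1 in 20 groups, or 1.6 of 32. Gadd45a in control 9 was at 7.80 log2 CPM among the 5 controls of libraries 6 to 15, with the next at 6.11 and a gap of 0.816 of the range. Secretome replicate 10 was lowest of its 10 muscles in Gadd45a, at 3.80 log2 CPM with the next at 5.05, and in Runx1, at 3.08 log2 CPM with the next at 4.65. Control 9 was also highest in Chrna1, Chrnb1, Chrnd, Chrng and Runx1, and secretome replicate 10 was also lowest in Chrna1 and Chrne.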

How the results depend on the processing

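The whole set was fitted in 29 ways and libraries 6 to 15 in 14, most of them with muscles left out. In these fits 0 members passed the 5% false discovery rate, with adjusted p from 0.245 to 0.998 and from 0.231 to 0.9999. Chrng was fitted in 2 and 8 of them. The number of genes called was 1 in all 20 libraries; it was 216 in DESeq2 (70 higher, 146 lower), 3 with voom, and 0 with the replicate block, with terms for the 3 library ranges or without controls 3 and 9 and secretome replicate 10 together. Leaving out 1 muscle gave 0 to 15, with 15 without control 5. Within libraries 6 to 15, where edgeR called 0 genes (1439 at an unadjusted p under 0.05), DESeq2 called 37, the fit without the filter 11, and leaving out 1 muscle gave 0 to 2, with 2 without control 8. The cause of these shifts was not tested. The replicate block changed no call of a member.

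The log2 fold change in all 20 libraries changed sign without the 3 muscles together in Chrna1 (0.066), Gadd45a (0.30) and Runx1 (0.27), with voom in Gadd45a (0.0025) and Runx1 (0.10), and with terms for the 3 ranges in Chrna2 (-0.39). Leaving out each muscle, it ranged from -0.36 to 0.0036 in Chrna1, -0.011 to 0.17 in Chrnb1 and -0.44 to 0.056 in Gadd45a, and within libraries 6 to 15 from -0.051 to 0.12 in Chrnb1, -0.71 to 0.077 in Gadd45a and -1.42 to 0.00081 in Chrna9. The signs turned without control 9 in Chrna1 and Gadd45a, without control 5 (all libraries) or control 6 and secretome replicates 1 and 5 (libraries 6 to 15) in Chrnb1, and without control 8 in Chrna9. Runx1 within libraries 6 to 15 had an unadjusted p of 0.0493 without control 6. Of the other values, 262 kept their direction and their side of the threshold under other settings and 552 with 1 muscle left out. With RLE or a prior count of 0.5, the genes co-varying with a member stayed within 1.5 times their number, and 5 genes differed in spread under each. Chrng and 9 of the 11 other subunits were below the filter on low counts, and the effect of depth on their tests was not examined.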
